A study of Mus musculus with 6 samples.

Results

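The class 3 semaphorins Sema3a to Sema3g, the neuropilins Nrp1 and Nrp2 and the plexin Plxna1 were examined in kidney glomeruli, where blood is filtered, of mice with and without a podocyte deletion of Klf4. These 10 genes were taken by symbol from the 24035 named genes of the deposited table, and all 10 were found. RNA was sequenced from glomeruli that had been loaded with iron oxide by perfusion, freed by enzyme digestion and collected with a magnet. The 3 control libraries came from FVB/N mice of genotype Klf4 fl/fl, and the 3 knockout libraries from FVB/N mice of genotype Podocin-Cre Klf4 fl/fl. The floxed alleles were thus shared by both groups, and Cre, driven by a promoter that is active in podocytes, was carried by the knockout mice only. Since Cre alone was not among the groups, Klf4 loss and the presence of Cre cannot be told apart. The labels give no age or sex and do not say that each library was a separate animal, so the spread between libraries may be partly technical.

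Class 3 semaphorins are secreted guidance proteins. They bind a neuropilin, which holds the ligand but has little signalling of its own, and a plexin, whose cytoplasmic part switches off small GTPases and loosens actin and integrin adhesion. Sema3e differs in that it binds Plxnd1 directly. Nrp1 is also a co-receptor for VEGF-A, so in vessels the semaphorins and VEGF share a receptor. In the kidney, podocytes make semaphorins and VEGF-A next to the endothelium, which carries neuropilins, and Sema3a and Sema3g have been studied as podocyte products in mice.

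Stretches upstream of Sema3g, of Nrp1 and of Nrp2 are shown because Sema3g and Nrp1 were the pair of members that fell, and Nrp2 is the paralogue of Nrp1 that did not pass the test. They come from RefSeq (GRCm38.p6, + strand), begin 250 bases before the RefSeq start and stop where a GENCODE exon of the gene begins. The Nrp1 stretch lies in an intron of a longer GENCODE transcript, and the others lie upstream of the annotated gene. They lie at chr14:31217623-31217859, chr8:128358823-128359072 and chr1:62703067-62703284. Capitals mark GGGTG or its reverse complement CACCC, the core that KLF proteins recognise.
Sema3g: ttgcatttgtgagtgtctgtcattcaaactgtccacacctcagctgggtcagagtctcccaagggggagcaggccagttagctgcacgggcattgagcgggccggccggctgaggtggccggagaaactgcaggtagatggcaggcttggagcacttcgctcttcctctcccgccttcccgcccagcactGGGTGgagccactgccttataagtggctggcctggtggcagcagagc
Nrp1: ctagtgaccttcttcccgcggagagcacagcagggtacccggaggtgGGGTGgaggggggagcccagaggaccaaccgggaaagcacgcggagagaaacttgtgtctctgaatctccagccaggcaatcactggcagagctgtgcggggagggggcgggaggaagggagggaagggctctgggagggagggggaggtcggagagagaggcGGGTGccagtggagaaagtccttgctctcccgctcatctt
Nrp2: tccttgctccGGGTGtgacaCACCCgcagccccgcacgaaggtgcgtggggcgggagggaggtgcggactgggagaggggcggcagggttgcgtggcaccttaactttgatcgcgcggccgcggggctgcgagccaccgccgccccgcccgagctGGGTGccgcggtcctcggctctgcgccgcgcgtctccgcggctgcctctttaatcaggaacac

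RefSeq windows were found for 7 of the 10 members. That of Sema3c begins inside a GENCODE exon, and those of Sema3a and Nrp1 lie within the annotated gene. Of these 7 windows, 5 held GGGTG on either strand in the 250 bases, namely Sema3c, Sema3e, Sema3g, Nrp1 and Nrp2. Of all 32817 windows of that length, 52.0% held it. The longer form GGGTGTG was searched too, on both strands, and it contains the shorter motif. It stood in the Nrp2 window alone among the 7, while 6.93% of all windows held it. GGGCGTG, held by 7.54% of all windows, was in none of the 7. These are matches of letters, and binding of Klf4 was not measured here.

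Counted reads ranged from 38936993 to 58272424 per library. Values below are RPKM, reads scaled to gene length and to the counted reads of the library, and can be compared between genes. Klf4 itself stood at 21.5, 44.3 and 49.8 RPKM in controls and at 29.4, 40.3 and 41.4 RPKM in knockouts. The deletion was aimed at podocytes while the RNA was of whole glomeruli, so these values do not check the genotype. Which cells the Klf4 RNA came from was not tested, nor was the extent of the deletion. Of the defining markers, Nphs1 of podocytes, Pecam1 and Cdh5 of endothelium and Pdgfrb and Itga8 of mesangium had control means of 323, 217, 123, 184 and 226 RPKM. Cldn1 and Pax8 of parietal epithelium were at 7.31 and 15.1 RPKM, and Ptprc and Cd68 of leukocytes at 1.71 and 1.88 RPKM. Tubule RNA was present: Slc34a1 and Lrp2 of proximal tubule were at 776 and 37.7 RPKM, and Umod and Slc12a1 of the loop at 502 and 106 RPKM. Col1a1 and Col1a2 of fibroblasts were at 0.737 and 33.9 RPKM.

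The groups also differed in the marker lists. Of 19 podocyte markers, 10 were lower and 0 higher, and their summed RPKM was 3955 to 7145 in controls and 1482 to 3113 in knockouts. Of 12 leukocyte markers tested, 11 were higher, with sums of 91.4 to 97.1 and 678 to 1558 RPKM. Of 10 parietal markers, 7 were higher, with sums of 73.6 to 105 and 281 to 554 RPKM. By limma 0 of 15 endothelial markers passed, 4 had an unadjusted p under 0.05 and voom called 1 (sums 2562 to 3612 and 1798 to 2795 RPKM). Mesangial markers were lower in 4 of 10, and 8 had an unadjusted limma p under 0.05 (1582 to 2248 and 1043 to 1471 RPKM). Of 10 proximal tubule markers 0 passed by limma or voom and 2 had an unadjusted p under 0.05 (1527 to 3383 and 1544 to 3326 RPKM). Markers of more distal tubule segments, from the loop to the collecting duct, were higher in 1 of 9 (439 to 1216 and 1002 to 2654 RPKM). Of these 9, 6 had an unadjusted limma p under 0.05, and their median log2 change was 1.45. Markers of fibroblasts and smooth muscle were higher in 5 of 8 tested (93.6 to 145 and 223 to 473 RPKM). Knockout replicate 2 had the lowest podocyte sum and the highest leukocyte and parietal sums. The part of these cell types in the results below was not tested. In such bulk tissue, fewer cells of a type and less RNA per cell cannot be told apart.

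Among the 10 members, Sema3c rose, Sema3g and Nrp1 fell, and the other 7 were not called. The test was limma on log2(RPKM + 0.5) with Benjamini-Hochberg adjustment over the 13912 genes whose mean reached 0.5 RPKM, and a call is an adjusted p under 0.05. Of the members, 8 passed the filter, and 2, Sema3a and Sema3d, were below it. The calls were 1 of 8 higher, where 9.98% of all tested genes were higher, and 2 of 8 lower, where 3.48% were lower. In either direction 37.5% of the 8 and 13.5% of all tested genes were called. The groups did not overlap for 3 of the 8 (37.5%), near the 35.1% of all tested genes. The median log2 change was −0.04 for the 8 and 0.10 for all tested genes. Under quantile normalization the median of all tested genes was −0.05 and the share of calls that were higher went from 74.2% to 51.5%, and the members' calls were the same in number.

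**Figure D1:**
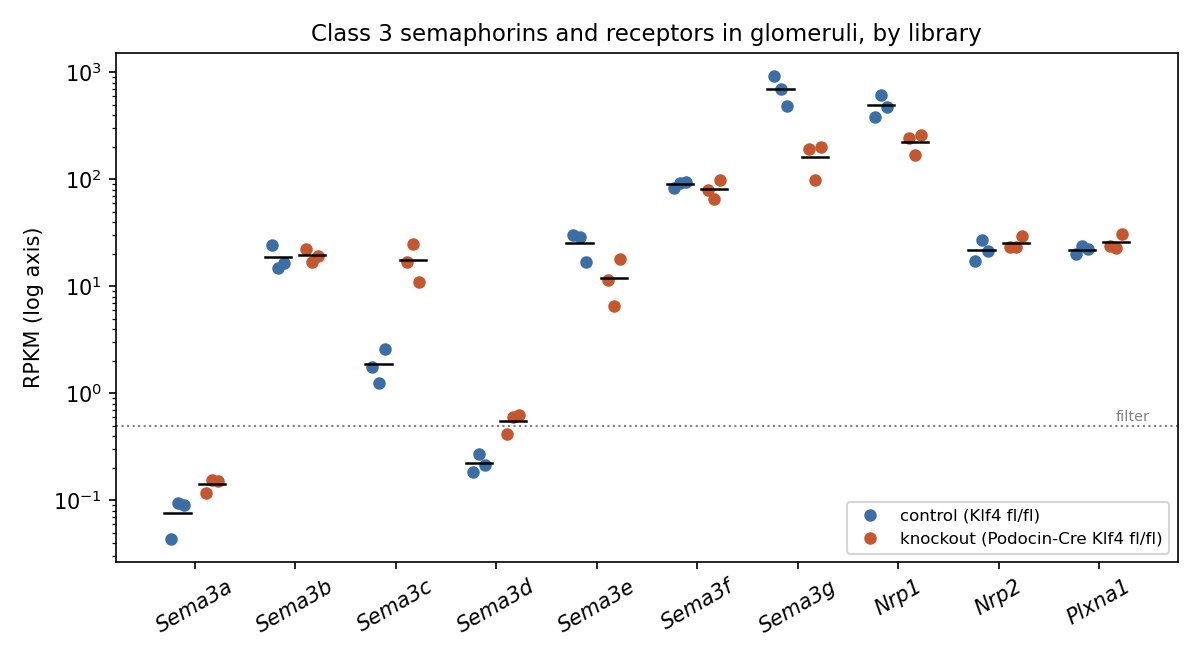
RPKM (log axis) of the 10 members in each of 3 control and 3 knockout libraries; points are libraries, black lines are group means, and the dotted line is the filter of 0.5 RPKM. Sema3c sits higher in all knockout libraries, Sema3g and Nrp1 sit lower, and the points of Sema3b, Sema3e, Sema3f, Nrp2 and Plxna1 overlap between the groups.

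**Figure D2:**
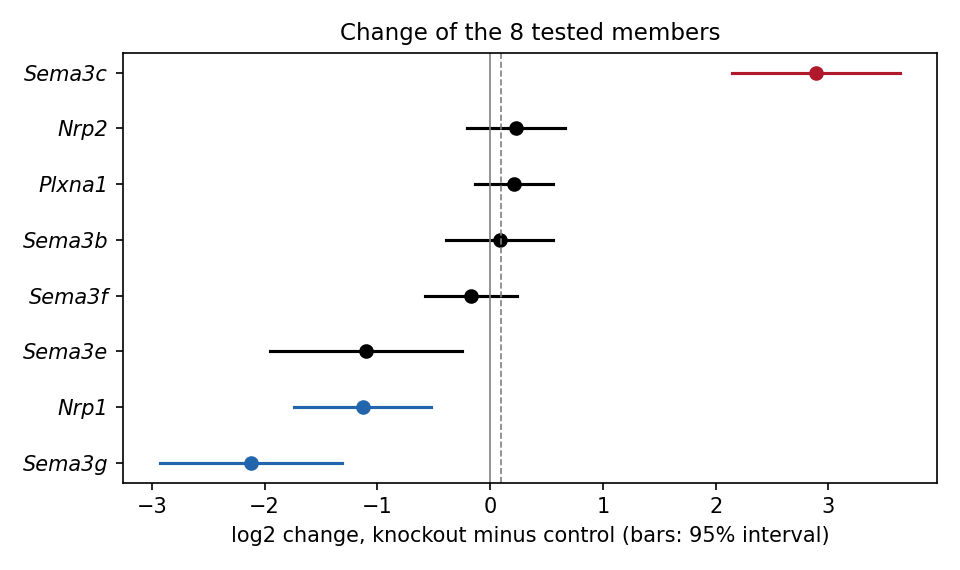
Log2 change (knockout minus control) of the 8 tested members with 95% intervals; red and blue mark genes called higher and lower, and the dashed line is the median of all tested genes. The intervals of Sema3b, Sema3f, Nrp2 and Plxna1 span 0, and that of Sema3e runs from −1.95 to −0.25 without passing the adjusted threshold.

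Among the ligands, Sema3g was the most abundant in every library. It lies on chromosome 14 (31217860 to 31230352, + strand, GRCm38). Control replicates 1 to 3 held 921, 694 and 488 RPKM, and knockout replicates 1 to 3 held 191, 99.1 and 199 RPKM. All controls were above all knockouts. The control mean of 701 ± 217 RPKM (SD, n = 3) ranked 22 among the tested genes, and the knockout mean was 163 ± 55.3 RPKM. It was 4.31-fold lower, and the log2 change was −2.12 (SE 0.35, 95% interval −2.93 to −1.31, limma adjusted p = 0.0104). The call held in all 15 alternatives, with an adjusted p of 0.00980 to 0.0368.

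Sema3g ran in the order of the podocyte marker sum within each group. That sum was 7145, 6478 and 3955 RPKM in controls 1 to 3 and 2407, 1482 and 3113 RPKM in knockouts 1 to 3. This list was picked after the values were seen, and in knockouts the endothelial and mesangial sums had the same order. Nphs1, which encodes nephrin of the slit diaphragm, had a log2 change of −2.08 (limma adjusted p = 0.0254), and the median over the 19 podocyte markers was −1.66. For Nphs1 the alternatives gave adjusted p from 0.0188 to 0.0761, and its call was kept in 11 of 15, ending among others when unfiltered or when control replicate 1 or 2 was left out. Whether Sema3g fell beyond podocyte markers was not tested. The genes most like Sema3g over the 6 libraries were Rcor2, Top1mt and Wt1os, with Pearson correlations of log2 values of 0.998, 0.998 and 0.997. These describe a group difference shared by the same libraries.

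Sema3c, a ligand that binds both neuropilins and is known for its role in cardiac outflow and vessel development, went the other way. It lies on chromosome 5 (17574281 to 17730268, + strand). Its values were 1.77, 1.25 and 2.58 RPKM in controls and 16.8, 24.7 and 10.9 RPKM in knockouts. Every knockout was above every control, with the highest value in knockout replicate 2. The means were 1.87 ± 0.672 and 17.5 ± 6.91 RPKM, a 9.36-fold rise of the mean. The log2 change, fitted after 0.5 RPKM was added, was 2.89 (SE 0.32, 95% interval 2.14 to 3.64, limma adjusted p = 0.00330). The reads behind it were 325 to 498 in controls and 3145 to 4981 in knockouts. The call held in all 15 alternatives, and the log2 change was 2.61 without knockout replicate 2.

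Within each group Sema3c had the order of the summed markers of the distal segments, loop to collecting duct. Those sums were 859, 439 and 1216 RPKM in controls and 2356, 2654 and 1002 RPKM in knockouts. This list was picked after the values were seen, and in controls the leukocyte and proximal tubule sums had the same order. The marker sums overlapped between the groups, whereas Sema3c did not. Taken singly, 3 of the 9 distal markers (Scnn1b, Scnn1g and Cldn16) did not overlap either, where 35.1% of all tested genes did not. All 9 markers together had 1.45 as the median of their log2 changes. The part of distal tubule RNA in the Sema3c rise was not tested. The pattern of Sema3c over the 6 libraries was most like those of Spp1, Cadm1 and Mapk4, with correlations of 0.998, 0.998 and 0.997. Spp1, which encodes the secreted protein osteopontin, stood at 83.7, 40.9 and 117 RPKM in controls and at 2089, 3261 and 1030 RPKM in knockouts.

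Sema3e, the ligand of Plxnd1, lies 5′ of Sema3c on the same chromosome (chromosome 5, 14025276 to 14256689, + strand). It stood at 30.1, 28.7 and 16.9 RPKM in controls and at 11.5, 6.60 and 18.0 RPKM in knockouts. Knockout replicate 3 was above control replicate 3, so the groups overlapped. The means were 25.3 ± 7.25 and 12.0 ± 5.73 RPKM, and the log2 change of −1.10 (SE 0.36) did not pass (limma adjusted p = 0.0883). It passed without knockout replicate 3 (log2 change −1.44, adjusted p = 0.0306) and in no other alternative. Plxnd1, the receptor, was at 85.6 ± 17.8 and 70.0 ± 14.7 RPKM and did not pass either (log2 change −0.29, adjusted p = 0.403).

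Sema3f and Sema3b lie near each other on chromosome 9 (107681500 to 107710475 and 107597674 to 107609229, − strand). Sema3f, which acts mainly through Nrp2, was the second most abundant ligand of the controls, with 83.2, 93.0 and 95.4 RPKM there and 79.8, 65.4 and 99.3 RPKM in knockouts. Its knockout range held the control range. The log2 change was −0.17 (95% interval −0.58 to 0.24, limma adjusted p = 0.557). Sema3b, a ligand of both neuropilins, stood at 24.6, 14.9 and 16.4 RPKM in controls and at 22.2, 16.9 and 19.3 RPKM in knockouts. Here the control range held the knockout range. Its log2 change was 0.09 (95% interval −0.39 to 0.56, limma adjusted p = 0.811), and it turned to −0.02 under median-ratio scaling.

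Sema3a and Sema3d were scarce. Sema3a, the founding repulsive ligand of the class, lies on chromosome 5 (13125414 to 13602565, + strand) and stood at 0.0439, 0.0940 and 0.0916 RPKM in controls and at 0.118, 0.155 and 0.153 RPKM in knockouts. Those values rested on 13, 36 and 26 reads and on 39, 46 and 65 reads. Sema3d, a ligand of vessel patterning on the same chromosome (12383385 to 12588948, + strand), stood at 0.185, 0.274 and 0.217 RPKM and at 0.417, 0.606 and 0.624 RPKM. It had 49, 94 and 55 reads in controls and 123, 161 and 237 in knockouts. For both genes every knockout was above every control, and both were left out of the test by the filter. With no filter, Sema3d had a log2 change of 0.53 (limma adjusted p = 0.0395) and Sema3a of 0.16 (adjusted p = 0.128). The added 0.5 RPKM shrinks such changes at these levels. As ratios of mean RPKM, knockouts were 2.44-fold higher for Sema3d and 1.86-fold higher for Sema3a.

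The ligands made up a different mixture in the 2 groups. The 7 class 3 semaphorins summed to 1061, 832 and 620 RPKM in controls and to 322, 213 and 347 RPKM in knockouts. Without Sema3g the sums were 140, 138 and 132 RPKM against 131, 114 and 148 RPKM, with means of 137 ± 4.42 and 131 ± 17.0 RPKM. Sema3g was the largest part of the sum in every library, so the total of the class moved with it. The remaining 6 ligands together overlapped between the groups. Sema3g held 86.8%, 83.4% and 78.8% of the sum in controls and 59.3%, 46.4% and 57.3% in knockouts. The share of Sema3c was 0.150% to 0.416% in controls and 3.14% to 11.6% in knockouts, and that of Sema3f was 7.84% to 15.4% and 24.8% to 30.6%. A share also moves with the rest of the sum, and Sema3f itself did not pass (limma adjusted p = 0.557). The ratio of Sema3g to Sema3f was 11.1, 7.46 and 5.12 in controls and 2.39, 1.52 and 2.00 in knockouts. That of Sema3g to Sema3c was 521, 556 and 189 against 11.3, 4.02 and 18.2. For both ratios the groups did not overlap, and the exact permutation test gave p = 0.1, two-sided, which is the smallest that 3 against 3 libraries allow. These ratios were chosen after their values were seen.

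**Figure D3:**
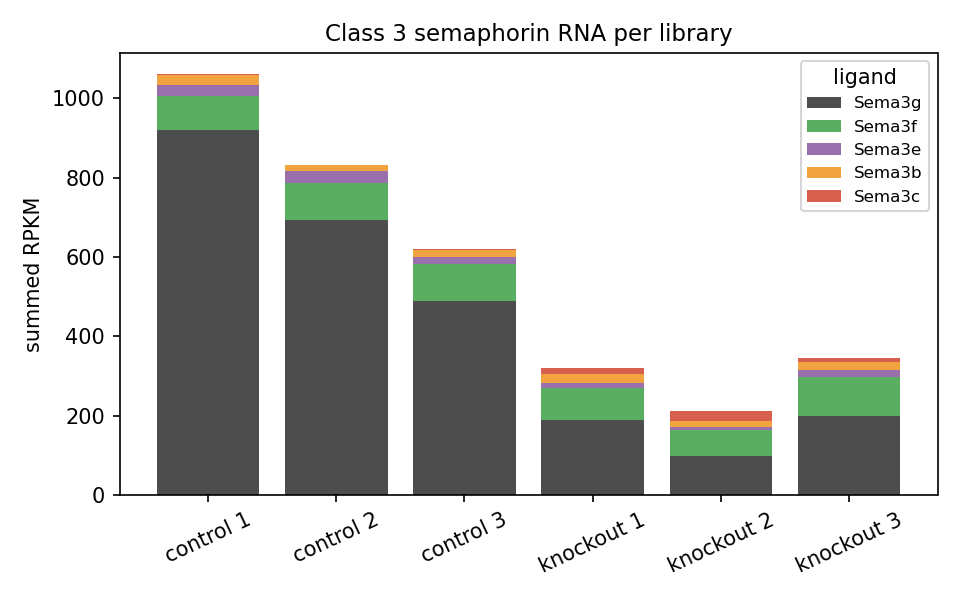
Summed RPKM of the ligands Sema3g, Sema3f, Sema3e, Sema3b and Sema3c in each library, as stacked bars that start at 0; Sema3a and Sema3d are too low to show. The Sema3g part shrinks from 488 to 921 RPKM in controls to 99.1 to 199 RPKM in knockouts, and the Sema3c part is visible only in knockouts.

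Of the co-receptors, Nrp1 (chromosome 8, 128358604 to 128503363, + strand) was far more abundant than Nrp2. Nrp1 stood at 381, 617 and 479 RPKM in controls and at 244, 169 and 258 RPKM in knockouts. All controls were above all knockouts. The means were 492 ± 118 and 224 ± 48.1 RPKM, 2.20-fold lower in knockouts. Its log2 change was −1.13 (SE 0.26, 95% interval −1.74 to −0.53, limma adjusted p = 0.0314). The direction held in all 15 alternatives. The call did not: it was lost with no filter (adjusted p = 0.0648) and with the replicate number as a block (0.109). It was also lost without control replicate 2 (0.0769), control replicate 3 (0.0757), knockout replicate 1 (0.0700) or knockout replicate 2 (0.125). The adjusted p ranged from 0.0254 to 0.125 over all alternatives.

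Nrp1 ran in the order of the endothelial marker sum in each group. That sum was 2562, 3612 and 3181 RPKM in controls and 2206, 1798 and 2795 RPKM in knockouts. This list was picked after the values were seen, and in knockouts the podocyte and mesangial sums had the same order. The endothelial sums overlapped between the groups, and their list had a median log2 change of −0.32. Single markers of the list ranged from −1.09 to 0.38. Between the groups 3 of 15 did not overlap, where 35.1% of all tested genes did not. Nrp1 is known from endothelium, podocytes and other cells, and the share of each in its fall was not tested.

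Nrp2, which also serves VEGF-C, lies on chromosome 1 (62703285 to 62818695, + strand) and did not follow Nrp1. It stood at 17.2, 26.9 and 21.5 RPKM in controls and at 23.3, 23.3 and 29.8 RPKM in knockouts. The groups overlapped. The log2 change was 0.23 (95% interval −0.21 to 0.66, limma adjusted p = 0.454). The ratio of Nrp1 to Nrp2 within a library was 22.1, 23.0 and 22.2 in controls and 10.5, 7.25 and 8.66 in knockouts. It was thus nearly constant among controls, at 22.4 ± 0.450, and 2.55-fold lower in knockouts, at 8.79 ± 1.61, with no overlap. The exact permutation test again gave p = 0.1, the smallest possible, and the ratio was chosen after its values were seen.

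Plxna1, a signalling receptor of the class that couples neuropilin-bound ligand to the cytoskeleton, lies on chromosome 6 (89316314 to 89362620, − strand). It stood at 20.1, 23.9 and 22.3 RPKM in controls and at 23.9, 22.8 and 30.7 RPKM in knockouts. The ranges overlapped, and the log2 change was 0.21 (95% interval −0.13 to 0.55, limma adjusted p = 0.384). An antisense gene, Gm26811, overlaps its exons in the GENCODE annotation and is not in the table. Without a stated strand setting, reads of the pair cannot be told apart.

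In the order of levels, Sema3g and Nrp1 led the controls and their ranges overlapped. Sema3f came next, apart from both neighbours. Sema3e, Plxna1, Nrp2 and Sema3b followed with each range overlapping the next, and then Sema3c, Sema3d and Sema3a, each apart. In knockouts Nrp1 was first and Sema3g second, and their ranges overlapped, as did those of Sema3g and Sema3f. Sema3c, eighth in controls, stood seventh, with a range overlapping those of Sema3b and Sema3e.

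Other genes of the pathway were described from 4 lists. Of 63 genes listed, 56 were tested, of which 6 were higher, 8 lower and 42 did not pass, where 9.98% of all tested genes were higher and 3.48% lower. Their median log2 change was 0.11, against 0.10 for all tested genes.

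Among the other semaphorins and plexins, 2 of 18 tested were higher and 3 lower. Sema5a, a membrane-bound semaphorin with thrombospondin repeats, went from 57.3 ± 12.9 to 22.9 ± 5.33 RPKM with no overlap (log2 change −1.31, SE 0.22, limma adjusted p = 0.0110). Sema4d, the ligand of Plxnb1, was at 6.50, 3.43 and 4.53 RPKM and at 13.9, 19.7 and 10.9 RPKM, a rise of 3.08-fold (adjusted p = 0.0136, and 0.0525 without knockout replicate 2). Its receptor Plxnb1 fell in the same libraries, from 32.6 ± 3.23 to 19.1 ± 4.05 RPKM (adjusted p = 0.0276). Sema4a, a membrane-bound semaphorin of immune cells, rose from 15.5 ± 5.49 to 34.9 ± 8.36 RPKM (adjusted p = 0.0386). Markers of leukocytes and of other cell types were higher in the same libraries, and the part of any of these in the Sema4a rise was not tested. Plxna3, a plexin used by Sema3f, fell from 4.24 ± 0.115 to 2.38 ± 0.247 RPKM (adjusted p = 0.0202), while its relatives Plxna2 and Plxna4 missed the threshold at log2 changes of 0.42 and 0.16. The Plxnb1 call ended when any library other than knockout replicate 3 was left out (adjusted p 0.0140 to 0.105 in the alternatives). For both Sema4a (0.0257 to 0.154) and Plxna3 (0.00969 to 0.0909), leaving out any of control replicates 2 and 3 and knockout replicates 1 and 2 ended the call, as did median-ratio scaling or no filter for Sema4a.

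Among neuropilin partners and VEGF genes, 1 of 9 tested was higher and 1 lower. Vegfa, the ligand for which Nrp1 is a co-receptor, stood at 427, 331 and 274 RPKM in controls and at 131, 88.0 and 178 RPKM in knockouts. The groups did not overlap (log2 change −1.41, SE 0.29, limma adjusted p = 0.0217). Leaving out any of replicates 1 and 2 of either group ended the call (adjusted p 0.0141 to 0.0715 in the alternatives). The VEGF receptors Kdr and Flt1 missed the threshold at log2 changes of −0.76 and −0.75 (adjusted p = 0.133 and 0.0985). L1cam, an adhesion molecule that binds Nrp1, rose from 5.65 ± 0.881 to 10.4 ± 2.81 RPKM (adjusted p = 0.0459), a call that was kept in only 4 of 15 alternatives.

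Among genes of plexin-A signalling, 3 of 24 tested were higher and 3 lower. Rnd1, a small GTPase that binds plexins, stood at 1.21, 1.30 and 1.31 RPKM in controls and at 8.22, 16.4 and 14.4 RPKM in knockouts. It rose 10.2-fold (log2 change 2.87, SE 0.25, limma adjusted p = 0.00206) and kept the call in all 15 alternatives. Rhod, another GTPase that binds plexins, rose from 9.56 ± 1.27 to 17.3 ± 0.947 RPKM (adjusted p = 0.00995). Pak1, a kinase activated by Rac, fell from 99.7 ± 32.5 to 27.3 ± 2.11 RPKM (log2 change −1.80, adjusted p = 0.00593). Dpysl2, which encodes the collapsin response mediator CRMP2, went from 25.8 ± 4.71 to 8.85 ± 2.25 RPKM (log2 change −1.50, adjusted p = 0.00686), while its relative Dpysl3 rose from 10.6 ± 1.87 to 23.6 ± 5.14 RPKM (1.11, adjusted p = 0.0133). Dpysl3 and Fyn, a kinase that acts on semaphorin signalling and fell from 49.9 ± 7.64 to 24.2 ± 4.31 RPKM (adjusted p = 0.0116), were named after their values were seen. Dpysl3 lost its call without knockout replicate 2 (adjusted p = 0.0508), and Fyn kept its call in 14 of 15 alternatives (highest adjusted p = 0.0534).

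Of the 5 proteases that process semaphorins, 1 was lower and 0 higher. Pcsk5, a proprotein convertase, went from 8.32 ± 0.846 to 5.67 ± 0.0634 RPKM (log2 change −0.51, limma adjusted p = 0.0443), but the call ended when any single library, or the filter, was left out. Pcsk6, Furin and Adamts1 missed the threshold at log2 changes of −1.04, 0.38 and 0.27 (adjusted p = 0.0536, 0.128 and 0.512).

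**Figure D4:**
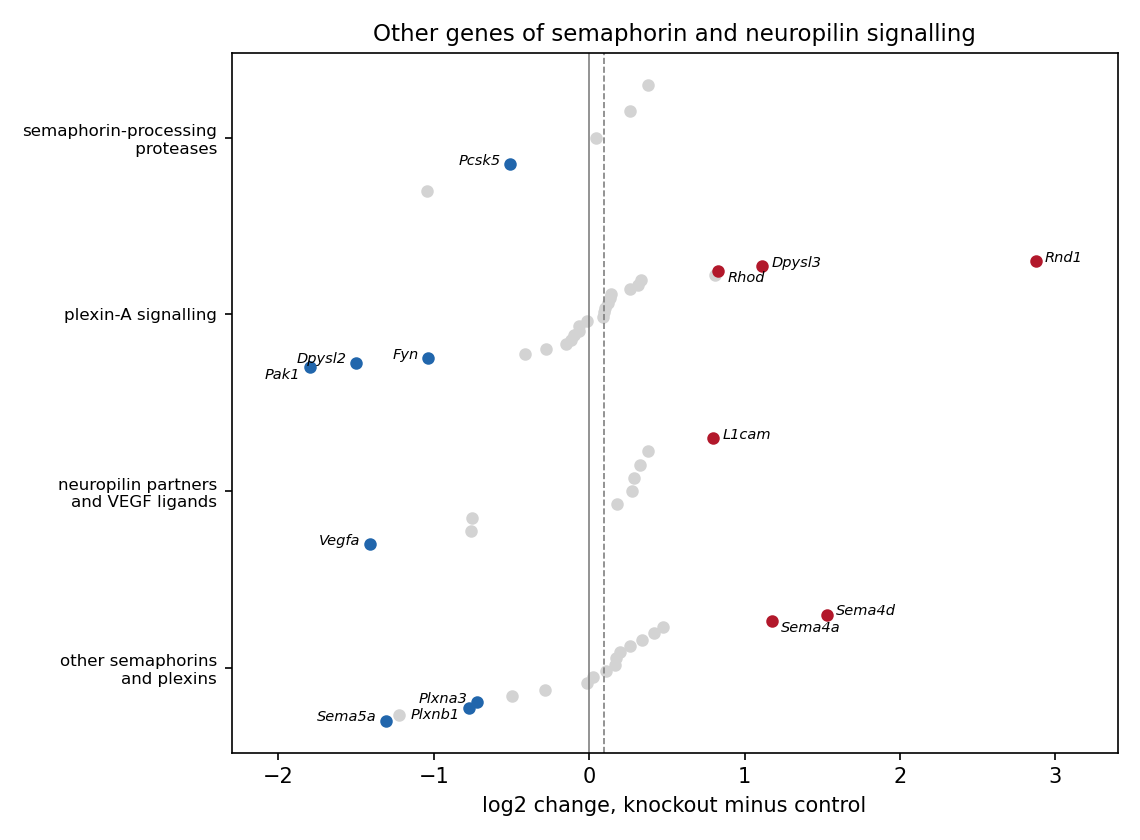
Log2 change (knockout minus control) of the 56 tested genes of 4 lists around semaphorin and neuropilin signalling; each point is a gene, red and blue points are called higher and lower and carry their names, grey points did not pass, and the dashed line is the median of all tested genes. Calls in both directions appear among plexin-A signalling genes and among the other semaphorins and plexins, with Rnd1 at 2.87 the farthest from 0.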

How the data were processed

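RNA-seq of isolated glomeruli was measured in 6 libraries, 3 per group, grouped by the genotype and title in the labels. The deposited table holds RPKM per gene. Per the submitters' processing notes the authors used FastQC, STAR, featureCounts and edgeR with mm10; the sources used here state no version, setting, annotation or strand option. The 27 rows with a date in place of a symbol, 0.233% to 0.269% of counted reads, were left out.

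Low RPKM values move in steps of 1 read. Reads, gene lengths and library totals were recovered from these steps, and 100% of the 24062 rows came out whole within 0.001 read, counting 4567 rows at 0. For a gene 1 kb long, a single read adds 0.0172 to 0.0257 RPKM. Genes whose mean reached 0.5 RPKM were tested on log2(RPKM + 0.5) with limma 3.58.1 (R 4.3.3), a mean-variance trend, no covariate, two-sided, with Benjamini-Hochberg adjustment over all 13912 genes and a threshold of 0.05. The log2 scale with its pseudocount understates the change of low genes. The fit was tested on simulated data. A fold is the ratio of group mean RPKM.

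All members are named, with the 4 smallest p of each pathway list, every called gene among other semaphorins and plexins, 2 defining markers per cell type (1 for podocytes, as the other is not reported here) and the 3 genes most correlated with the leading member in each direction. The members and lists were chosen with earlier results of these data known. Of the listed leukocyte symbols 12 of 13 were in the table. Gene positions are from GENCODE M21 and sequences from RefSeq, both GRCm38, the build named in the labels as mm10. Alternatives were other pseudocounts, filters and scalings, no trend, voom on whole reads, a replicate block and leaving out each library.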

Additional observations from a re-analysis of the deposited data

How the results depend on the processing

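Sema3c and Sema3g kept their calls in all 15 alternatives, and Nrp1 in 9 of 15. With no filter 2 members were higher, Sema3c and Sema3d, and 1 lower, as Nrp1 missed the threshold. Without 1 library, 1 to 3 members were lower (3 without knockout replicate 3, which added Sema3e). Sema3b, never called, turned sign under median-ratio scaling (log2 change −0.0212) and without control replicate 2 or knockout replicate 1 (−0.0524 to 0.297 without 1 library). The causes were not tested.

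Over all genes, 1389 were higher and 484 lower. These counts were 849 and 798 under quantile normalization. With a filter at 2 RPKM 841 were higher. Without 1 library they were 474 to 1497 and 124 to 617, lowest without knockout replicate 2. Pathway genes without 1 library were 2 to 6 higher and 4 to 8 lower. Voom on whole reads called 1339 higher and 453 lower, with the members' counts unchanged.

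Deviations from the group means had correlations of 0.175, −0.215 and −0.461 between same-numbered libraries, and of −0.461 to 0.504 over all pairs across the groups. With 3 libraries per group, such values cannot decide whether replicate numbers pair the libraries. With the replicate block, 632 genes were higher and 179 lower, 1 member was lower and 1 higher, and pathway genes were 3 lower and 4 higher; Nrp1 then had an adjusted p of 0.109. Among the other genes described, the block also ended the calls of Nphs1 (0.0522), Fyn (0.0534), Vegfa (0.0626), Cldn16 (0.0646) and Sema4a (0.0742). The calls of Plxnb1 (0.0818), Plxna3 (0.0829), L1cam (0.116), Pcsk5 and Pax8 ended with it too. The ratios of Nrp1 to Nrp2, Sema3g to Sema3c and Sema3g to Sema3f kept their direction without any single library. At this depth Sema3a rested on at most 65 reads in a library, and intervals from reads would cover counting error only, since reads carry no molecular identifiers.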
